A study of Caenorhabditis elegans with 6 samples.

Results

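Coelomocytes of Caenorhabditis elegans, the scavenger cells of the worm's body cavity, were sorted from L3 larvae, and the RNA of 3 control libraries of such cells is described here gene by gene. They are the 3 of 6 libraries of the series whose animals lacked the transgene for the factor CHE-1. Genes were ranked by mean CPM, the count of a gene per 1000000 counts of its library, over the 3 libraries, and a gene was kept when each of them held 10 or more counts for it. Of the 21882 genes in the table, 6305 passed this minimum (28.8%), and of the 19637 protein-coding genes, 6238 passed (31.8%). The rest of the kept set was 51 pseudogenes, 2 long intergenic RNA genes and 14 identifiers with no entry in the annotation. The kept genes held between 98.4% and 99.6% of each library's counts. No set of genes was tested against another and no p-value is given, because the 3 libraries form a single group.

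Coelomocytes sit free in the fluid of the pseudocoelom, take up macromolecules from it by endocytosis, and pass them through endosomes to large lysosomes. Secreted fluorescent proteins collect in them, and genetic screens for worms whose coelomocytes fail in this uptake gave the cup and rme genes. Some coelomocytes are born in the embryo and others arise later from the postembryonic M lineage, which also makes muscle.

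The animals were strain BAT2087, which carries the integrated reporter barIs177 (unc-122prom::gfp) and glp-4(bn2) I, a temperature-sensitive allele that leaves worms raised at the restrictive temperature without a germline. Both features are shared by the whole group, so neither the allele nor the reporter has a counterpart without it. GFP-positive cells were collected by fluorescence-activated sorting after chitinase and pronase digestion and pipetting, and strand-specific poly(A) libraries were made from their RNA, per the labels' protocols and the series' design text. The unc-122 promoter alone therefore defined which cells were taken. The labels name the tissue as whole worm, and list a pair of sorter models without saying which was used for each library. Whether each library had its own culture or sort is also not stated. The spread between libraries may therefore be technical.

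The libraries differed in depth, with totals of 57851993, 23062805 and 58325279 counts in libraries 1, 2 and 3. CPM was scaled by these totals. Another scaling, edgeR's TMM, gave factors of 0.946, 1.093 and 0.968 for the same libraries. Which library was highest or lowest is given by CPM throughout and can change under TMM where levels lie close. Library 2, the shallowest, had a count above 0 for 7006 genes, against 9608 in library 1 and 11297 in library 3. It decided most exclusions: of the genes with 10 or more counts in exactly 2 libraries, 2229 failed in library 2 alone, 360 in library 1 alone and 40 in library 3 alone. Of those 2229 genes, 2102 were listed at 0 in library 2. Their median level in the other libraries was 3.40 CPM, a level that would give a median of 78.4 counts at the depth of library 2. Counts of 1 to 9 were rare in every library, at 450, 188 and 300 genes, so most genes missing from a library were at 0 there rather than at a few counts. What produced this pattern was not tested. The sole excluded gene with a mean of 100 CPM or more was F44E5.4, a heat-inducible Hsp70 with a near-identical neighbour, F44E5.5. F44E5.4 stood at 236.8, 0 and 93.6 CPM, while F44E5.5 stood at 1473, 1166 and 1521 CPM, and reads shared between such copies can be divided unequally by the counting. Just inside the minimum, 16 genes had their lowest library at 10 counts with a median mean of 3.85 CPM. Just outside it, 15 genes had their lowest library at 9 counts with a median mean of 4.14 CPM.

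The 4 coelomocyte markers were all kept and all among the top 100 genes. The gene aman-1, which encodes a lysosomal alpha-mannosidase, had 5455, 3893 and 5074 CPM. The gene cup-4, a ligand-gated ion channel relative that coelomocytes need for uptake, had 4076, 3364 and 4654 CPM. The gene lgc-26, another member of the ligand-gated channel family, had 3055, 2981 and 3958 CPM. Library 2 was the lowest of the 3 for each of these markers. The gene unc-122, whose promoter drives the reporter and so the sort, had 1589, 1269 and 1815 CPM and the same order of libraries as cup-4. Per kb of exon the order of the markers changed: cup-4 had a mean of 2827 ± 453 CPM per kb (SD, n = 3), lgc-26 had 2021 ± 330, aman-1 had 1617 ± 274 and unc-122 had 858 ± 151. Per kb, cup-4 was the highest and unc-122 the lowest in every library, and the intervals of 1 SD of lgc-26 and aman-1 overlapped. Together the 4 markers took 1.37% ± 0.203 of the counts. In a bulk library, fewer cells of a type and less RNA per cell cannot be told apart, and this holds for each level given below.

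The counts were concentrated in few genes. The 10 top genes took 24.5% ± 1.28 of a library (SD, n = 3), the top 100 took 47.5% ± 2.15 and the top 1000 took 79.9% ± 0.731. The 101 most abundant genes of library 1, 139 of library 2 and 123 of library 3 made up the first 50% of the counts. At the other end the median kept gene had a mean of 30.99 CPM. A mean of 1000 CPM or more was reached by 136 kept genes, and 100 CPM or more by 1365.

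The first gene in every library was far-1 (WBGene00001385; chromosome III, 9080371 to 9081179, minus strand), which encodes a secreted fatty acid and retinol binding protein of a nematode-specific family. It had 56617, 54190 and 59893 CPM, a mean of 56900 ± 2862 (SD, n = 3). The libraries lay close together, with a coefficient of variation (CV, the SD as a percent of the mean) of 5.03%. It also led per kb of exon, at 87137 ± 4383 CPM per kb. Its neighbour far-2, which starts on the opposite strand at 9081828 and ends at 9082511, was the second of the 2 kept family members among 8, with 1733, 1454 and 2109 CPM. Per kb, far-1 stood 30.7 ± 4.15 times as high as far-2. The other 6 far genes did not pass the minimum, and each of the 6 was at 0 in library 2. The far family as a whole held 5.87% ± 0.320 of the counts.

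The second gene was inos-1 (chromosome II, 11698317 to 11700300), the inositol 3-phosphate synthase that makes the first intermediate of inositol from glucose 6-phosphate. It had 39665, 43977 and 50419 CPM, with a CV of 12.1%. It remained among the leaders per kb, at rank 3 with 26057 ± 3156 CPM per kb. The gene ttx-7, an inositol monophosphatase that completes inositol synthesis, had a mean of 820 ± 182 CPM, with 626, 848 and 986 CPM in libraries 1, 2 and 3. Both genes were lowest in library 1 and highest in library 3. A group of 13 inositol and phosphoinositide genes was put together after the values were seen. All 13 were kept, beside 31.8% of all protein-coding genes. Only 3 of the 13, inos-1, ttx-7 and the phosphatase gene mtm-3, were among the top 1000. The lowest, plc-3, had a mean of 2.75 CPM.

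Matrix genes followed. The gene dig-1, which encodes a giant extracellular protein with immunoglobulin domains that holds neurons and other tissues in place, had 48324, 32159 and 22917 CPM and was at rank 3 by mean CPM. Library 1 was more than 2 times as high as library 3, the reverse of the order seen for inos-1. Its exons span 39690 bases, and per kb it fell to rank 139 with 868 ± 324 CPM per kb. The gene mig-6, which encodes the matrix protein papilin, had 14619, 12878 and 19501 CPM, with 1962 ± 430 CPM per kb. It made up 79.2% of the summed level of 18 basement membrane genes, of which 14 were kept. The type IV collagen genes let-2 and emb-9, whose products form the collagen network of basement membranes, had means of 2498 ± 318 and 611 ± 76.1 CPM. Without mig-6, the remaining basement membrane genes summed to 4323, 3787 and 4219 CPM, a narrower range. Together far-1, inos-1, dig-1 and mig-6 took 15.9%, 14.3% and 15.3% of the 3 libraries.

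**Figure D1:**
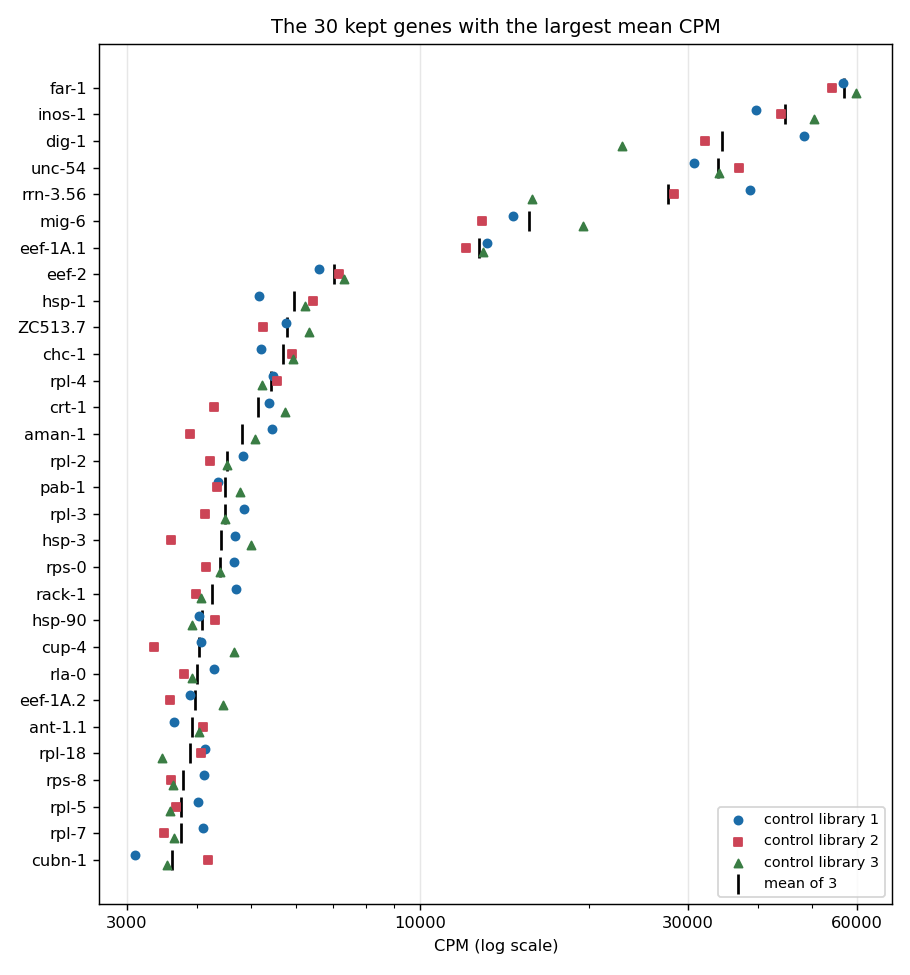
The 30 kept genes with the largest mean CPM, in order from the top; the x axis is CPM on a log scale, each symbol is 1 control library and the bar is the mean of 3. The symbols of far-1 lie close together around 56900 CPM, while those of dig-1 and rrn-3.56 are spread widely with library 3 the lowest.

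Protein synthesis genes filled much of the top of the ranking. Of 84 cytosolic ribosomal protein genes, 83 were kept and 42 were among the top 100. Here and below, a summed level or share is over all listed genes, kept or not. Each count of kept genes, above and below, stands beside the 31.8% kept of all protein-coding genes. The summed share of the ribosomal protein genes was 15.0%, 13.03% and 13.7% of libraries 1, 2 and 3. The median kept member had 1317 CPM and a CV of 8.75%, beside 30.99 CPM and 32.4% for all kept genes. Per kb of exon, 22 of the 30 top genes were on this list, which counts rack-1 as a member. The gene rpl-4 led the group with 5464, 5558 and 5230 CPM, and rpl-18 led it per kb at 5952 ± 564 CPM per kb. Among 44 translation factor genes, 42 were kept. The elongation factor gene eef-1A.1 had 13136, 12097 and 12954 CPM, and its paralog eef-1A.2 had 3897, 3589 and 4452 CPM. The elongation factor gene eef-2 had a mean of 7028 ± 371 CPM and pab-1, which encodes the poly(A) binding protein, had 4499 ± 236 CPM. Each of these 4 genes varied by less between libraries than dig-1 or mig-6. The genes rack-1, rpl-5 and rpl-7 share exon sequence with another gene on the same strand, so part of their counts is uncertain.

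Genes of folding in the endoplasmic reticulum and of the secretory route were abundant, as a group of 38 of which 36 were kept, 8 in the top 100. Their summed share was 3.03%, 2.55% and 3.18%. The gene crt-1, which encodes the calcium-binding chaperone calreticulin, had 5389, 4301 and 5748 CPM. The gene hsp-3, one of the worm's pair of BiP genes, had 4677, 3602 and 4994 CPM. Both were lowest in library 2. The protein disulfide isomerase genes pdi-2 and pdi-3 had means of 2807 ± 369 and 2143 ± 353 CPM. The second BiP gene, hsp-4, which the unfolded protein response induces, behaved differently, with 2674 CPM in library 1 and 1141 and 1014 CPM in libraries 2 and 3. The gene of the unfolded protein response factor XBP-1, xbp-1, had 2086, 1717 and 1494 CPM, the same order of libraries as hsp-4. Coat and early secretory pathway genes were less abundant. In that list 24 of 26 were kept, none was among the top 100, and copa-1, which encodes the alpha subunit of the COPI coat, led with 780 ± 111 CPM.

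Of 44 genes of endocytosis and endosomes, 43 were kept, a share like that of the cytoskeleton genes, 27 of 27, and the proteasome genes, 32 of 33, which all cells use, and above the 31.8% of all protein-coding genes. The endocytosis genes had a summed share of 1.46%, 1.72% and 1.61%. The clathrin heavy chain gene chc-1 led with 5217, 5918 and 5936 CPM, 35.6% of the list's sum, and ranked 11 among all genes. The others were far lower: the retromer gene snx-1 had 798, 1266 and 1009 CPM. The early endosome GTPase gene rab-5 had 694, 1007 and 1029 CPM, and the recycling gene rme-1 had 804, 1013 and 806 CPM. The dynamin gene dyn-1, whose product severs coated vesicles, had 602 ± 40.7 CPM. Of these 5 genes, each was lowest in library 1 by CPM, and rme-1 was nearly level in libraries 1 and 3. For chc-1 and rme-1 this order depends on scaling by library totals.

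One receptor gene stood far above the other scavenger and endocytic receptors. The gene cubn-1, related to the vertebrate multiligand receptor cubilin, had 3111, 4188 and 3539 CPM and held 94.6% of the summed level of the 12 receptors listed. Its exons span 12216 bases, and per kb it had 296 ± 44.4 CPM. The next members were lrp-2, a megalin-type receptor of the LDL receptor family, with 82.6 ± 13.03 CPM, and scav-3, of the CD36 class, with 62.9 ± 12.1 CPM. The engulfment receptor gene ced-1 had 37.5 ± 17.2 CPM. Of the 12 listed receptors, 6 were kept (50.0%), beside 31.8% of all protein-coding genes. The yolk receptor gene rme-2, used by oocytes, had counts only in library 3, at 1.77 CPM.

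Lysosomal genes were unequal. Of 60 protease and hydrolase genes, 26 were kept (43.3%), beside 31.8% of all protein-coding genes. The marker aman-1 alone made up 56.6% of their sum. The gene hex-1, which encodes a beta-hexosaminidase, had 2209, 2218 and 2658 CPM. The acid alpha-glucosidase relative aagr-3 had 598, 467 and 677 CPM, and the aspartic protease gene asp-1 had 145, 241 and 200 CPM. After these the levels fell quickly, so that the median kept member had 22.8 CPM, below the 30.99 CPM of all kept genes. The proton pump that acidifies lysosomes was more even: 19 of 21 V-ATPase subunit genes were kept, 16 of them in the top 1000. Its leading member vha-13, which encodes a catalytic-head subunit, had 763, 1133 and 1030 CPM. Of the lysosomal membrane genes, 8 of 17 were kept (47.1%). The LAMP-type gene lmp-1 had 323 ± 72.6 CPM, and cup-5, the mucolipin gene whose loss gives swollen lysosomes in coelomocytes, had 33.6, 11.5 and 37.7 CPM. Autophagy genes were kept in 24 of 25 cases, led by the ubiquitin-like gene lgg-1 at 608 ± 84.5 CPM, while the 13 engulfment genes, 11 of them kept, held 0.0640% ± 0.0106 of the counts.

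**Figure D2:**
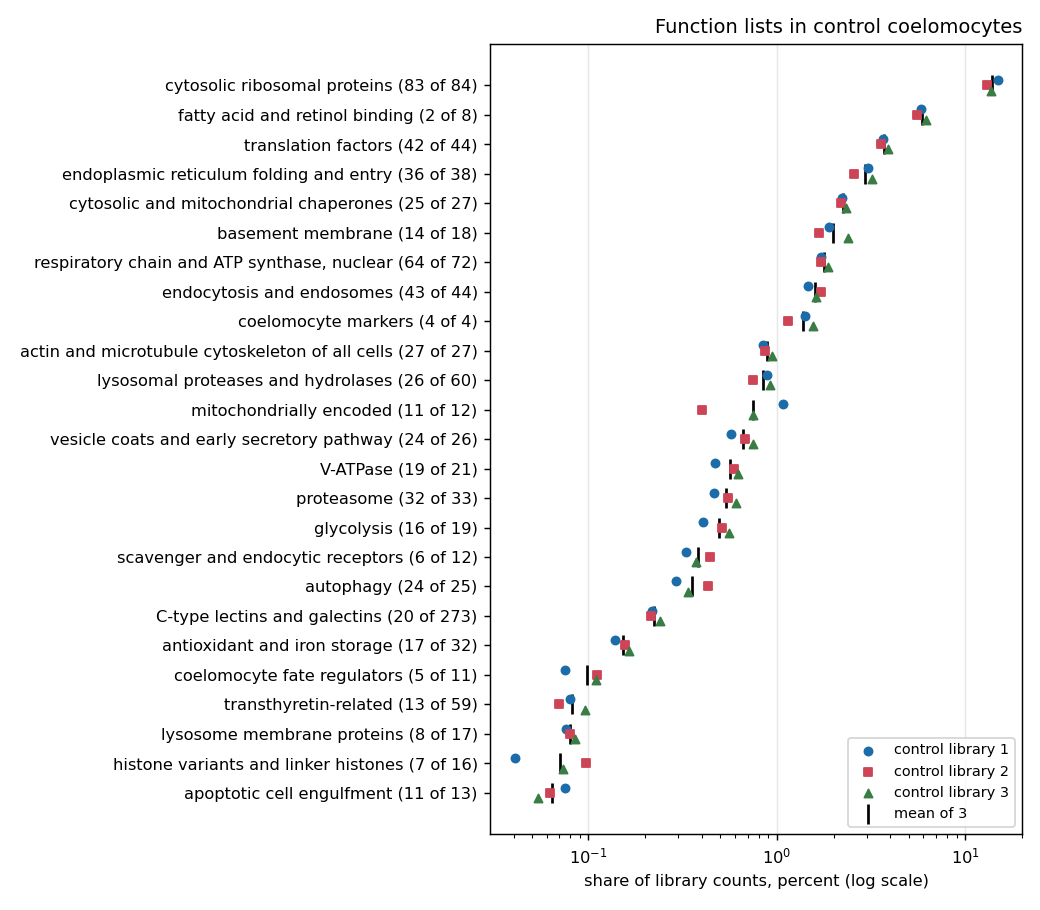
Share of each library's counts, in percent on a log scale, for lists of genes grouped by function, with the number kept of the number in the table in parentheses. Ribosomal proteins lead, near 13.9% of counts; the libraries lie farthest apart for the mitochondrially encoded genes and for the histone variants.

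Chaperones of the cytosol and mitochondria were kept in 25 of 27 cases and held 2.23% ± 0.0737 of the counts. The constitutive Hsp70 gene hsp-1 had 5168, 6457 and 6237 CPM, and hsp-90 had 4045, 4320 and 3917 CPM. Heat-inducible chaperones were also present at high levels. The small heat shock gene hsp-16.1 had 1397, 1059 and 1123 CPM. The related hsp-16.48 had 1107, 357 and 1115 CPM, with library 2 far below the others. The heat-inducible Hsp70 gene hsp-70 had 855, 633 and 940 CPM. These families hold near-identical copies, so that the split of counts between copies is uncertain. All 3 libraries came from dissociated cells of worms raised at the restrictive temperature, and the part of that preparation in these levels was not tested.

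Energy genes were present at moderate levels. The adenine nucleotide carrier gene ant-1.1 had 3639, 4103 and 4044 CPM, and the ATP synthase genes atp-2 and atp-1 had means of 2704 ± 187 and 2261 ± 236 CPM. Nuclear respiratory chain and ATP synthase genes were kept in 64 of 72 cases, and their summed share varied little, at 1.71%, 1.72% and 1.88%. The mitochondrially encoded protein genes varied far more. Their share was 1.08% in library 1, 0.401% in library 2 and 0.751% in library 3, and COX1, which encodes cytochrome oxidase subunit 1, followed the same order at 4745, 1865 and 3517 CPM. Of 19 glycolysis genes, 16 were kept, led by gpd-3 with 745 ± 168 CPM and enol-1 with 724 ± 113 CPM, and gpd-3 has a near-identical copy in gpd-2. Proteasome genes were kept in 32 of 33 cases, each below the top 100, with rpn-3 highest at 416 ± 31.5 CPM. Of 27 actin and tubulin genes and their partners all were kept, with tbb-2, a beta-tubulin gene, highest at 1313 ± 232 CPM.

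Several further gene lists and families had only a few members at high levels. Only 20 of 273 C-type lectin and galectin genes were kept (7.33%), beside 31.8% of all protein-coding genes, and 205 were at 0 in all 3 libraries. The lectin gene clec-178 had 886, 816 and 1040 CPM, 40.9% of that list. Of 59 transthyretin-related genes, 13 were kept, and ttr-1 had 426, 295 and 528 CPM. The antioxidant genes were led by the peroxiredoxin gene prdx-2, which was nearly level at 412, 405 and 394 CPM. Among 56 ligand-gated ion channel genes of the lgc class, 11 were kept, a smaller share than the 31.8% of all protein-coding genes. All 56 summed to 6580 ± 671 CPM. Apart from lgc-26, lgc-25 had 1497, 1685 and 1623 CPM and lgc-28 had 1278, 1180 and 1405 CPM. Per kb these were 947 ± 56.6 and 1013 ± 88.7 CPM, below lgc-26 in each case. The lgc class, and the patched class with ptc-1 at 1974, 2086 and 2083 CPM, were picked out after the values were seen. The product of ptc-1 is a relative of the Hedgehog receptor Patched.

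Regulators of coelomocyte fate were present in part, with 5 of 11 kept (45.5%), beside 31.8% of all protein-coding genes. Of 90 transcription regulator genes listed for comparison, 56 were kept. The median of the 5 kept fate regulators alone was 104.01 CPM. The M lineage makes coelomocytes through the forkhead gene let-381, the sine oculis-type homeobox gene ceh-34 and its cofactor gene eya-1. The gene ceh-34 had 380, 604 and 513 CPM, let-381 had 217, 229 and 387 CPM, and eya-1 had 59.2, 160 and 93.1 CPM. Both ceh-34 and eya-1 were lowest in library 1 and highest in library 2, while let-381 was highest in library 3. Per kb these 3 genes stood at 450 ± 102, 220 ± 75.2 and 55.9 ± 27.5 CPM. The Twist gene hlh-8, which acts in the undifferentiated M lineage, had 57.9, 98.8 and 64.9 CPM, and the Hox gene mab-5 had 20.9, 15.3 and 27.7 CPM.

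The other 6 of 11 fate regulators failed the minimum. The SoxC gene sem-2, which in the M lineage favours sex muscle precursors, had 125, 4 and 451 counts. The Hox gene lin-39 had 405, 0 and 9 counts, and mls-2 had 70, 0 and 65. The zinc finger gene fozi-1 and the MyoD gene hlh-1, which act in the muscle and coelomocyte branch of the lineage, were seen in library 3 only, with 198 and 106 counts. The unc-39 gene, of the same homeobox class as ceh-34, was at 0 in all 3 libraries. By counting error alone, a count of 0 allows a level of up to 0.1301 CPM in library 2 and up to 0.0519 and 0.0514 CPM in libraries 1 and 3. In library 2, however, 2102 genes were at 0 with a median of 3.40 CPM in the other libraries. A 0 there therefore need not mean a level under this bound.

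Among 92 transcription regulator genes listed for comparison, 90 were in the table and 56 were kept. The highest was xbp-1, followed by zip-2, a bZIP gene known from the response to infection, with 1266, 1982 and 1735 CPM. Next in CPM were hif-1, the hypoxia factor gene, with 509, 862 and 761 CPM, and skn-1, the oxidative stress factor gene, with 544, 672 and 561 CPM. After ceh-34, the lysosome and autophagy regulator gene hlh-30, the worm relative of TFEB, had 377, 676 and 438 CPM. Then came the sex determination gene tra-1 at 465 ± 89.2 CPM, the bZIP gene cebp-1 at 441 ± 155 CPM, atf-4 at 302 ± 21.2 CPM and the Mediator subunit gene mdt-15 at 285 ± 85.9 CPM. Apart from the step between zip-2 and hif-1, neighbours in this order of CPM, which is not adjusted for length, differed by less than the larger of their SDs. The forkhead gene fkh-7, which was outside the list and picked after its values were seen, had 710, 1737 and 1452 CPM.

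**Figure D3:**
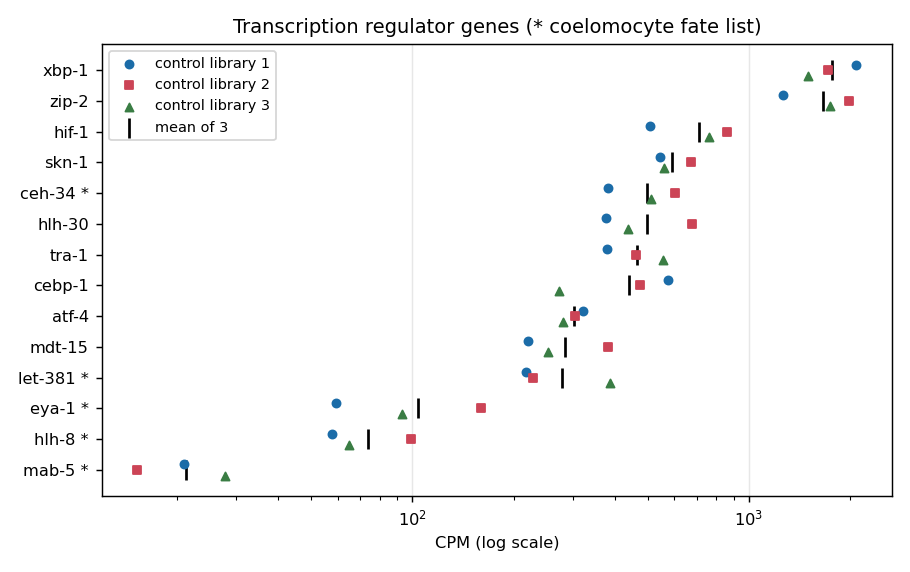
CPM on a log scale of the 10 highest listed transcription regulator genes and the kept coelomocyte fate regulators, which carry an asterisk; symbols are the 3 control libraries and the bar is their mean. The genes xbp-1 and zip-2 lie above 1000 CPM, ceh-34 near 499 CPM and mab-5 near 21.3 CPM.

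Markers of other cells were measured in the same libraries. The lists of other cells held 384 members, of which 136 were kept and 2, unc-54 and act-4, were in the top 100. The pooled share kept was not far above the 31.8% of all protein-coding genes, but the lists differed widely. It was 95.2% for body wall muscle, 76.7% for neurons, 55.6% for the excretory list, 51.4% for hypodermis and cuticle and 43.5% for pharynx. It was 28.6% for intestine, 28.5% for cuticle collagens, 14.3% for somatic gonad, 10.0% for glia and 9.38% for germline. The largest signal was that of body wall muscle. The gene unc-54, the major myosin heavy chain of that muscle, was at rank 4 of all genes with 30732, 37027 and 34147 CPM. The rest of the muscle list did not match it. The myosin gene myo-3, whose product lies in the same thick filaments, had 17.4, 14.1 and 8.95 CPM per kb, against 4954, 5968 and 5504 for unc-54. The ratio was 284, 424 and 615 in libraries 1, 2 and 3, a mean of 441 ± 166. For the paramyosin gene unc-15 it was 54.4 ± 13.8. The actin gene act-4, the second member, had 2748, 2487 and 2407 CPM and shares sequence with other actins. Without unc-54 the muscle list summed to 5309, 4611 and 4297 CPM, and 19 of these 20 genes were kept, hlh-1 being the exception. The labels do not say which 3′ end the reporter of this strain carries, and unc-54 3′ ends are common in worm transgenes, so the part of the transgene in the unc-54 level was not tested. Nor was that of muscle RNA.

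**Figure D4:**
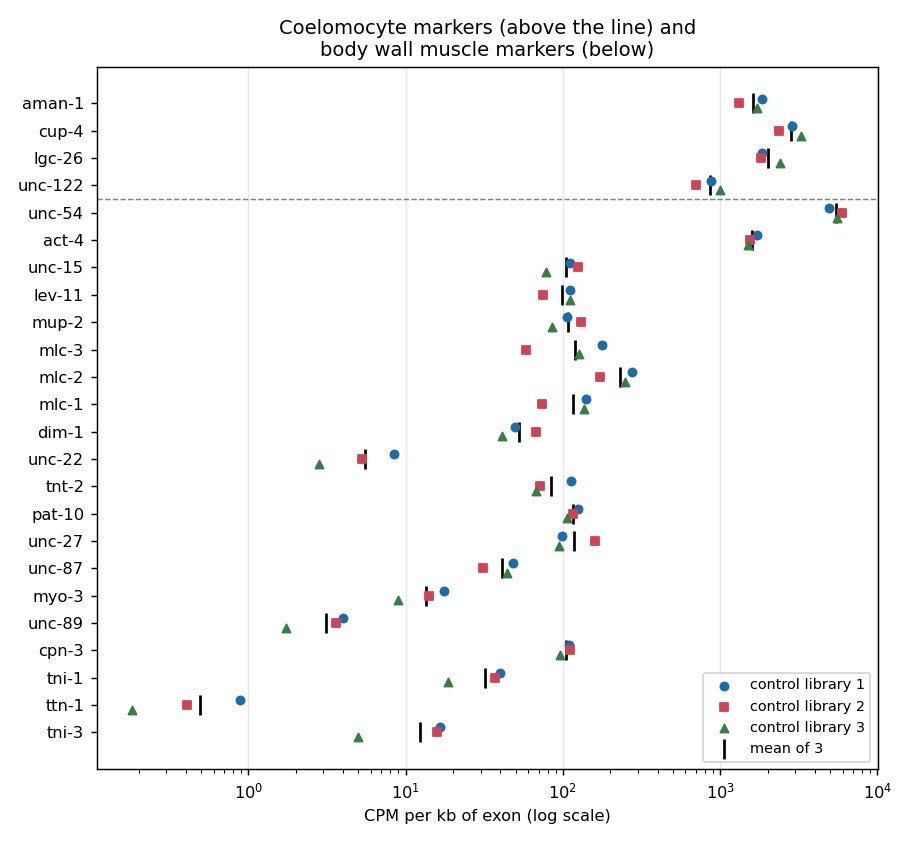
Level per kb of exon, as CPM per kb on a log scale, of the 4 coelomocyte markers above the dashed line and the 20 kept body wall muscle genes below it; symbols are the 3 control libraries and the bar is their mean. The gene unc-54 lies above the coelomocyte markers, act-4 lies among them, and the other muscle genes lie below all 4 markers.

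The remaining lists of other cells differed in how far the libraries lay apart, with sums whose CV ran from 4.49% for the excretory list to 85.05% for the somatic gonad list. Of 30 neuron genes, 23 were kept, with sums of 1361, 1379 and 1575 CPM, led by rgef-1 at 190, 266 and 232 CPM, while the genes of serotonin and dopamine synthesis, tph-1 and cat-2, were at 0 throughout. The pharynx list held act-4 and ceh-34, which are also on other lists. Without these genes it summed to 834, 175 and 252 CPM, and the pharyngeal myosin genes myo-2 and myo-1 had 208, 34.8 and 66.0 CPM and 196, 7.85 and 45.5 CPM. Library 1 was therefore the highest for pharyngeal genes.

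Cuticle collagen genes showed the same library on top. Of 158 col genes, 45 were kept, and the sums of all 158 were 3362, 1699 and 2407 CPM. The collagen gene col-3 had 307, 4.16 and 199 CPM, and col-10 had 340, 127 and 197 CPM, whereas col-117 was level at 285, 258 and 270 CPM. Of 35 hypodermis and cuticle genes, 18 were kept, and all 35 summed to 561, 471 and 477 CPM. Intestine genes were kept in 8 of 28 cases (28.6%), beside 31.8% of all protein-coding genes, with sums of 592, 729 and 694 CPM. Most of that sum came from gst-1, asp-1 and asp-5, and the intestinal regulator gene elt-2 had 143, 0 and 27 counts. Glia genes, of which 1 of 10 was kept, summed to between 26.3 and 29.8 CPM.

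Gonad genes were low. The germline list had 6 of 64 genes kept and 42 at 0 in all 3 libraries, with sums of 66.6, 45.96 and 40.2 CPM. The animals carried glp-4(bn2), and the part of this allele in the germline levels was not tested. The somatic gonad list had 1 of 7 kept, with sums of 43.1, 5.42 and 18.9 CPM. The excretory list had 5 of 9 kept with 245, 228 and 248 CPM, mostly from the homeobox gene pros-1. Of 1619 genes named from chemoreceptor families, 8 were kept and 1495 were at 0 in all 3 libraries. The part of other cells in the levels of shared genes was not tested.

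Genes of replication-independent and linker histones varied with the library, and the median kept member had 72.4 CPM. The linker histone gene his-24 had 63.97, 364 and 270 CPM, and the histone H3.3 gene his-72 had 157, 228 and 197 CPM. The H2A.Z gene htz-1 was level, at 68.8, 72.6 and 75.8 CPM. The 16 listed genes of this class, 7 of them kept, summed to 405, 967 and 735 CPM.

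Some loci near the top are annotated as pseudogenes or have only a sequence name. The locus rrn-3.56, annotated as a pseudogene of the ribosomal RNA cluster on chromosome I (15060299 to 15061150), had 38741, 28368 and 15818 CPM, falling in the same library order as dig-1. The pseudogene ZC513.7 (chromosome V, 8039469 to 8040387) had 5780, 5245 and 6335 CPM. Among 1872 kept genes that have only a sequence name, 8 were in the top 100. After ZC513.7 these were led by F07H5.5, also annotated as a pseudogene, with 2295, 3954 and 3867 CPM, and Y73F4A.1, with 2813, 1815 and 3019 CPM. The others were T19C3.5 at 1558 ± 299 CPM, F08B12.4 at 1514 ± 198 CPM, Y37E3.8 at 1503 ± 312 CPM, F01G4.6 at 1499 ± 80.5 CPM, and F44E5.5. Per kb, Y73F4A.1 at 3663 ± 925 CPM was at the level of crt-1, at 3673 ± 538 CPM. The next in rank, Y82E9BR.3 and F46H5.3, had 1275 ± 78.5 and 1187 ± 174 CPM.

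The kept genes were unevenly placed on the nuclear chromosomes. The share of protein-coding genes that was kept was 46.1% on chromosome III and 42.1% on chromosome I, but 19.9% on chromosome V. It was 30.1% on chromosome II, 30.6% on chromosome IV and 32.1% on the X chromosome. The median level of kept genes on the nuclear chromosomes ran from 28.7 CPM on the X chromosome to 34.9 CPM on chromosome I. Of the 12 protein-coding genes of the mitochondrial genome, 11 were kept, with a median of 261 CPM.

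The spread among the 3 libraries fell with level. The median CV was 57.5% for genes under 10 CPM, 40.9% from 10 to 30 CPM, 28.1% from 30 to 100 CPM, 19.6% from 100 to 300 CPM, 15.9% from 300 to 1000 CPM and 10.4% from 1000 CPM up. Counting error alone would give 6.10% in the lowest class and 0.335% in the highest. The second set of values gives the floor that depth alone sets for the spread between separate libraries. In edgeR's dispersion fit, what edgeR terms the biological CV was 61.8% near 10 CPM, 30.4% near 100 CPM and 24.3% near 1000 CPM. It holds all spread beyond counting error, so technical spread is included. Libraries 1 and 3 were the closest pair, with a Pearson correlation across genes of 0.919 on log2 values, against 0.841 for libraries 1 and 2 and 0.865 for libraries 2 and 3. These correlations describe 6305 genes, which are not independent replicates. Of the kept genes, 2963 were highest in library 2 by CPM, 1737 in library 3 and 1605 in library 1. These counts depend on scaling by library totals. The ranking itself was stable at the top, where 26 of the 30 leading genes were in the top 30 of each library and 86 of the leading 100 in the top 100 of each.

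**Figure D5:**
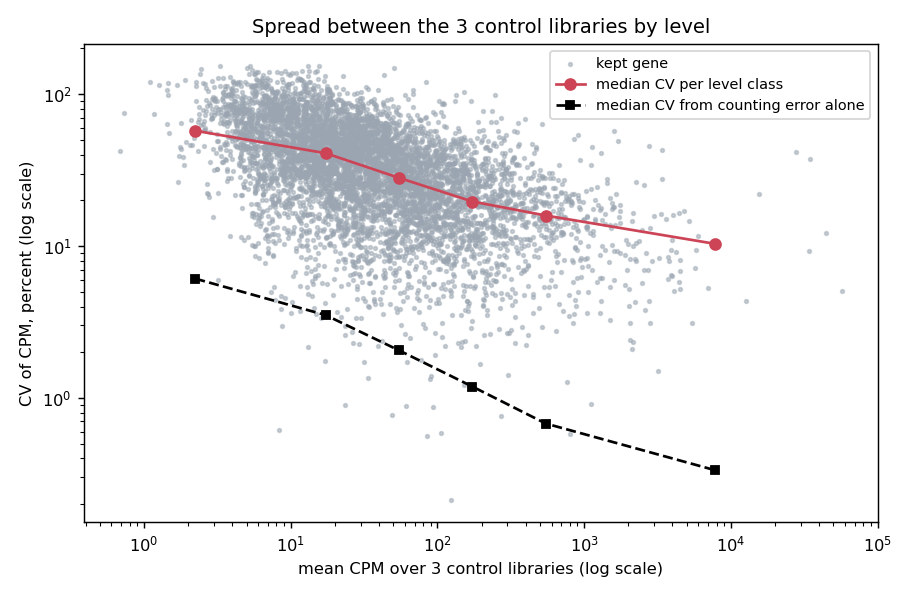
The CV of CPM over the 3 control libraries, in percent, against mean CPM, both on log scales; each grey point is a kept gene, the red line joins the median CV of 6 level classes and the dashed line the median CV that counting error alone gives. The median falls from 57.5% to 10.4% with level and stays above the dashed line in each class.

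The genes that varied most among those with a mean of 100 CPM or more differed in which library stood apart. Library 2 was the high one for acs-2, an acyl-CoA synthetase gene of fatty acid oxidation, with 54.5, 331 and 69.1 CPM. It was also the high one for F21C10.10, with 47.6, 270 and 79.9653 CPM, and for T14B1.1, with 32.1, 218 and 83.3 CPM. Library 1 was the high one for vsra-1, an Argonaute gene, with 528, 101 and 113 CPM. The same held for Y58A7A.4 with 279, 93.9 and 26.1 CPM, for haf-2, an ABC transporter gene, with 448, 139 and 121 CPM, and for cua-1, a copper pump gene, with 210, 34.9 and 75.8 CPM. The chromatin remodeller gene xnp-1, related to ATRX, had 215, 84.9 and 28.02 CPM. The tissue genes col-3 and myo-2 complete the 10 most variable genes, and both were also highest in library 1. Over the 1365 genes at this level, 11 were at least 2-fold above both other libraries in library 1, 13 in library 2 and 0 in library 3. At least 2-fold below both others were 16 genes in library 1, 13 in library 2 and 18 in library 3.

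The genes that were steadiest in CPM at the same level came from varied functions. The kinase gene rskn-2 had 124.3, 124.7 and 124.3 CPM. The histone deacetylase gene hda-4 had 801, 809.8 and 805 CPM. The gene C24G6.8 had 104.4, 105.1 and 105.7 CPM, and the seryl-tRNA synthetase gene sars-1 had 273, 268 and 271 CPM. The ribosomal gene rpl-26 had 1119.7, 1099.6 and 1107.9 CPM, with a CV of 0.911%. The small CVs of these genes hold for scaling by library totals. The TMM factors of 0.946, 1.093 and 0.968 for libraries 1, 2 and 3 would set their levels farther apart.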

How the data were processed

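Poly(A) RNA of FACS-sorted coelomocytes was sequenced in 3 control libraries. The deposited raw table holds the authors' estimated counts per gene, already whole numbers. The submitters' processing notes name Salmon 0.13.1, DESeq2 and WBcel235 with no role. The rule for gene totals was not given in the sources used here. Every row names a gene. The deposited normalized table was not used here. CPM was computed from library totals, and levels per kb by union exon length (Ensembl release 115, WBcel235, which held 21714 of 21882 identifiers). Symbols came from a name table for 19626 genes, a RefSeq locus tag for 1893 and a RefSeq position for 191; 172 had none. R 4.3.3 with edgeR 4.0.16 gave dispersions and TMM factors, DESeq2 1.42.0 size factors, and Python 3.11.15 the rest. The dispersion step was tested on simulated data. No 2 libraries were duplicates. Columns of the CHE-1 libraries were not used here.

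The genes named are the top 30 by CPM, the top 10 per kb, the leading members of each function list, the markers and fate regulators, the 10 most and 5 least variable genes from 100 CPM up, the top 10 sequence-name genes and the top 10 of the listed transcription regulators. A gene family or member outside these was chosen after its values were seen. The members and lists were chosen with earlier results of these data known, and some list entries were corrected to current names after the tables were read. Alternatives were other count minimums, thinning, TMM and size factor scaling, the median in place of the mean, level per kb, totals without the ribosomal RNA locus and mitochondrial genes, and leaving out each library.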

Additional observations from a re-analysis of the deposited data

How the results depend on the processing

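The number of genes kept was 6527 with a minimum of 1 count, 6223 with 20, 8934 when 2 of 3 libraries sufficed and 6254 after thinning to the shallowest total. Leaving out a library gave between 6345 and 8534 genes, the largest without library 2. The share of the 10 top genes was 23.1% without the ribosomal RNA locus and mitochondrial genes. The median CV over kept genes was 32.4% as reported, 31.9% with TMM factors and 32.02% with DESeq2 size factors. It was 30.4% with a minimum of 100 counts and 32.2% after thinning. Without 1 library it lay between 26.8% and 31.1%, being lowest without library 2. Those last CVs use 2 libraries and the genes kept in them, so they cannot be set directly against 32.4%. The muscle sum was 4739 CPM without unc-54. Ranking per kb moved 137 of 170 named genes out of the range of their ranks in the 3 libraries, and ranking by median CPM did so for 7 of 170. TMM factors moved the mean CPM of the 184 named genes and the sums of the 36 lists by less than 1 SD. Leaving out a library moved the mean of 13 of 170 kept named genes by over 1.5 times. Library 1 decided most: without it myo-1 fell to 26.7 CPM, myo-2 to 50.4, vsra-1 to 107, Y58A7A.4 to 60.02, cua-1 to 55.3, xnp-1 to 56.5, haf-2 to 130.2, col-3 to 101 and tnt-3 to 9.26. Without library 2, acs-2 fell to 61.8 CPM, F21C10.10 to 63.8, T14B1.1 to 57.7 and gld-1 to 3.96. Among 36 lists, the somatic gonad sum alone moved that far, from 22.5 to 12.1 CPM without library 1. No paired analysis was possible because a single group was described and no result comes from a test. With 3 libraries no outlying library can be called. Thinning to 1 depth changed the number of genes kept little, and why genes were at 0 in library 2 was not tested.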
